A study of Mus musculus with 9 samples.

Results

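Aminoacyl tRNA synthetases, the enzymes that load each amino acid onto its tRNA, were followed in marrow cells labelled as stromal. The cells came from wild type mice and from mice with leukemia. The family was taken as a list of 35 genes, 20 that encode cytosolic enzymes and 15 that encode mitochondrial ones (symbols ending in 2), chosen by function and not by their values. Of these, 34 had a probe set that carried a single gene symbol, 19 cytosolic and 15 mitochondrial, among 18194 genes so represented on the array, and each gene was read from its brightest such probe set. Dars, the cytosolic aspartyl enzyme, was not analysed here. Older symbols are kept as listed (Aars is Aars1 in newer naming), and Mars appears as Mars1 in the annotation.

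All 9 RNA samples came from FVB/NJ marrow cells gated to lack both CD45.1, a form of the pan-leukocyte antigen, and Ter119, an erythroid surface marker. The labels give no positive stromal marker, no age and no sex. The 3 WT samples are from wild type mice, the 3 E samples from leukemic recipients in the early phase, when leukemic cells made up 1 to 5% of the marrow, and the 3 M samples from recipients in the medium phase, with 5 to 50%. How the leukemia was induced is not given in the sources used here. Each sample was hybridised to its own Affymetrix array, and the labels call the 3 arrays of a group biological replicates without saying whether animals were pooled.

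Synthetases use ATP to activate an amino acid and then transfer it to the matching tRNA, so every protein made in the cytosol or in mitochondria depends on them. They fall into 2 unrelated structural classes, and in the cytosol 8 of the listed enzymes (Dars, Eprs, Iars, Kars, Lars, Mars, Qars and Rars) sit together in a multi-synthetase complex held by scaffold proteins. Kars and Gars encode both the cytosolic and the mitochondrial form, which is why they have no partner ending in 2. When amino acids run short, uncharged tRNA activates the kinase Eif2ak4 (GCN2), and the transcription factor ATF4 is then translated and is known to raise genes of amino acid supply, cytosolic synthetases among them.

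Values are log2 MAS5 signals as deposited, so a difference of 1 is a doubling of signal. Levels are given for comparison between groups and not between genes, since probe sets differ in brightness. A gene is called changed when the adjusted p of the limma model over all 9 arrays is under 0.05. The 12 poly-A spike-in probe sets, designed to report RNA added for labelling, averaged 9.11 ± 0.17 for WT, 9.10 ± 0.09 for E and 10.12 ± 0.29 for M (± SD over 3 arrays), a difference of 1.01 between M and WT (2.01-fold; exact permutation test, two-sided, p = 0.1, the smallest that 3 against 3 arrays can give). The median probe set of an array stood at 5.64 ± 0.04, 5.50 ± 0.09 and 6.26 ± 0.02. On the deposited scale the median of the 9097 tested genes differed by 0.01 between E and WT and by -0.19 between M and WT, and the values below are to be read against these medians. The 3′ probe set of Gapdh exceeded the 5′ one, a sign of RNA quality, by 0.07 ± 0.12 in WT, 0.07 ± 0.02 in E and 0.28 ± 0.18 in M (0.43, 0.34 and 0.07 by array), and for Actb by 1.06 ± 0.085, 1.06 ± 0.10 and 1.17 ± 0.17. The part of this in the results was not tested. Among 11 mesenchymal stromal markers, including Cxcl12, Lepr and Col1a1, the mean level came to 8.31 ± 0.15 (WT), 8.51 ± 0.09 (E) and 12.33 ± 0.09 (M), and among 9 granulocyte markers it was 8.12 ± 0.18, 9.42 ± 0.06 and 12.36 ± 0.18. Both marker lists were thus far higher in M, and the shared label of stromal cells does not show that the groups held like cells. In bulk samples such as these fewer cells of a type and less RNA per cell cannot be told apart.

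The first comparison asks whether synthetase RNA differed at the onset of detectable leukemia. In E none of the 34 genes passed the test against WT, with 0 of 19 cytosolic and 0 of 15 mitochondrial genes called by limma, where 2.11% of all tested genes were called. At an unadjusted p under 0.05 there were 2 cytosolic genes (Kars and Vars) and 1 mitochondrial gene (Fars2), beside 1279 of the 9097 tested genes. The differences were small and mostly above 0, in 16 of 19 cytosolic genes with a median of 0.10 and in 13 of 15 mitochondrial genes with a median of 0.14. Over all tested genes 48.5% lay below 0, with a median of 0.01. In the cytosolic set the differences ran from -0.13 for Cars, the cysteinyl enzyme, to 0.43 for Vars, the valyl enzyme. In the mitochondrial set they ran from -0.06 for Wars2 to 0.46 for Mars2. The 3 E arrays lay wholly above the 3 WT arrays for 6 cytosolic and 4 mitochondrial genes and wholly below for 1 (Cars), where 15.0% of all tested genes had E wholly above WT and 14.7% wholly below.

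Kars, the lysyl enzyme, came closest in E. It read 12.28, 12.26 and 12.32 in the WT arrays, 12.49, 12.54 and 12.43 in the E arrays and 11.65, 11.65 and 11.61 in the M arrays. The groups thus did not overlap, with E highest and M lowest. The difference between E and WT was 0.20 ± 0.06 (SE), with an adjusted p of 0.130 in limma. Without M replicate 3, which only enters this comparison through the shared estimate of spread, Kars was the 1 cytosolic gene called, in a setting that called 9.19% of all tested genes.

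**Figure D1:**
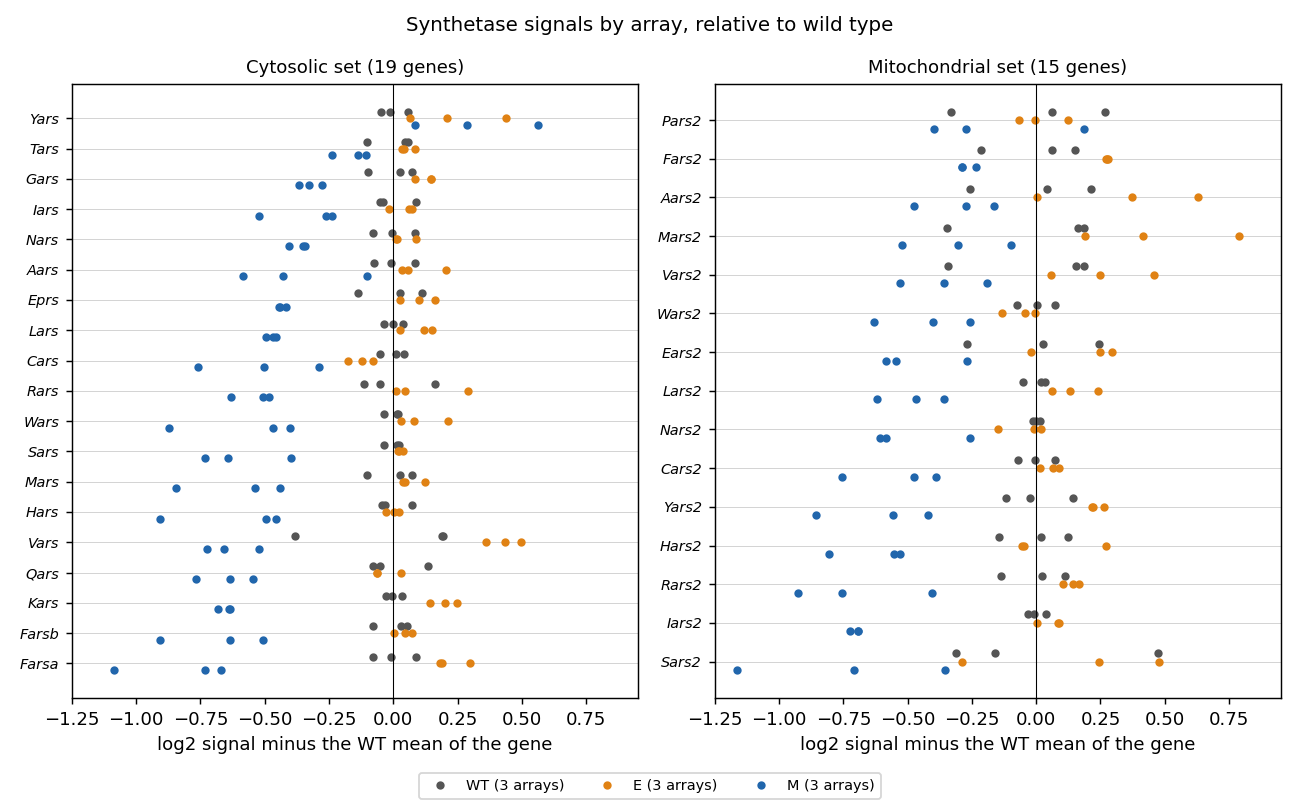
Log2 signal of each of the 34 measured synthetases in each of the 9 arrays, minus the mean of its 3 WT arrays (x axis, log2 units). Genes are ordered by their difference between M and WT, and each dot is 1 array. The M dots lie below all WT dots for 18 of 19 cytosolic and 10 of 15 mitochondrial genes, and above them for Yars, whose direction turns with arrays centred on their median or on the spike-ins.

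In the medium phase most of the family fell. Against WT, 17 of 19 cytosolic genes were called lower and 0 higher, and 11 of 15 mitochondrial genes were called lower and 0 higher. In the same comparison 43.5% of all tested genes were called lower and 25.3% higher, so that a fall was common on these arrays. Among the 4549 brightest genes the share called lower was 60.8%, beside 14 of the 15 cytosolic genes and all 5 of the mitochondrial genes that are that bright. The M arrays lay wholly below the WT arrays for 18 cytosolic and 10 mitochondrial genes and wholly above for 1 (Yars), where 45.5% of all tested genes lay wholly below and 26.5% wholly above. The median difference was -0.54 in the cytosolic and -0.48 in the mitochondrial set, against -0.19 over all tested genes. In all, 11 of 19 cytosolic and 6 of 15 mitochondrial genes lay below -0.50, the lower quartile of all tested genes. With M replicate 1 left out, 7 mitochondrial genes were called instead of 11, in a setting that called 43.4% of all tested genes lower. The Gapdh ratio of 3′ to 5′ signal was higher in M as given above, and most so in M replicates 1 and 2.

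The enzymes of the multi-synthetase complex fell much as the other cytosolic ones did. All 7 measured members were called lower in M, with a median of -0.54. They ranged from -0.34 for Iars (isoleucyl) to -0.65 for Kars and Qars. Of the 12 cytosolic genes outside the complex 10 were called lower, with a median of -0.55. Over all tested genes 43.5% were called lower, and 60.8% among the 4549 brightest. Eprs, which joins glutamyl and prolyl activities in 1 protein, read 12.41, 12.25 and 12.49 in WT, 12.48, 12.41 and 12.55 in E and 11.94, 11.96 and 11.94 in M. The M arrays were nearly equal to each other and below every WT and E array. The fall against WT was -0.43 ± 0.07, or 1.35-fold (adjusted p = 0.000293, limma).

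Qars, the glutaminyl enzyme, read 12.55, 12.52 and 12.73 in WT, 12.54, 12.54 and 12.63 in E and 11.96, 12.06 and 11.83 in M. E and WT overlapped, and M lay below both. The difference between M and WT was -0.65 ± 0.08 for Qars and -0.65 ± 0.06 for Kars, falls of 1.57-fold each. The other members of the complex, with their means in WT, E and M, were Lars (leucyl) at 12.24, 12.34 and 11.77, Mars (methionyl) at 12.10, 12.17 and 11.50, Rars (arginyl) at 12.29, 12.41 and 11.75 and Iars at 12.74, 12.78 and 12.40. The 3 scaffold genes of the complex were called lower as well, beside 43.5% of all tested genes. Aimp2 had a difference of -0.93 ± 0.07, Eef1e1 of -0.52 ± 0.08 and Aimp1 of -0.51 ± 0.06 between M and WT.

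The largest fall between M and WT in the cytosolic set was that of phenylalanyl tRNA synthetase, whose 2 kinds of subunit come from separate genes. Farsa, the catalytic alpha subunit, read 10.55, 10.45 and 10.38 in WT, 10.64, 10.65 and 10.76 in E and 9.73, 9.79 and 9.37 in M. Farsb, the beta subunit, read 13.04, 12.91 and 13.01 in WT, 13.06, 12.99 and 13.03 in E and 12.35, 12.48 and 12.08 in M. In both subunits the M arrays were the lowest, and replicate 3 was the lowest of the M arrays. Farsa fell by 0.83 ± 0.11 (1.78-fold, adjusted p = 5.4e-05) and Farsb by 0.68 ± 0.09 (1.60-fold, adjusted p = 6.2e-05) in limma.

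Vars read 9.31, 9.31 and 8.74 in WT, 9.62, 9.55 and 9.48 in E and 8.60, 8.46 and 8.40 in M. WT replicate 3 stood apart from the other two and lay closer to the M arrays, though still above them. The difference between M and WT was -0.63 ± 0.15 (adjusted p = 0.00298). Wars, the tryptophanyl enzyme and a known interferon-induced gene, read 9.06, 9.01 and 9.06 in WT, 9.07, 9.26 and 9.12 in E and 8.64, 8.58 and 8.17 in M. It fell in M by 0.58 ± 0.13 (adjusted p = 0.00213), while Irf1, a gene of the interferon response, rose by 2.43 ± 0.16. Gbp2, another, read 6.17 ± 0.27 in WT and 6.04 ± 0.16 in E, below the brightness needed for testing, and 9.44 ± 0.43 in M, and was tested through its M arrays only. Of the other interferon genes only Usp18 was bright enough to be tested, and it fell by 0.74 ± 0.19.

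The rest of the cytosolic set that was called lower in M had differences between -0.62 and -0.33. In WT, E and M the means were 13.92, 13.91 and 13.30 for Hars (histidyl), 10.97, 10.99 and 10.38 for Sars (seryl) and 9.29, 9.16 and 8.77 for Cars. They were 11.07, 11.17 and 10.70 for Aars (alanyl), 12.42, 12.46 and 12.05 for Nars (asparaginyl) and 12.56, 12.68 and 12.23 for Gars (glycyl). For all 6 the M arrays lay below the WT arrays. The call for Aars was lost without WT replicate 1 (-0.33, adjusted p = 0.0517). That for Cars was lost with the mean of its probe sets, among them a dim one (-0.42, adjusted p = 0.0868, limma).

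Yars, the tyrosyl enzyme, and Tars, the threonyl enzyme, were the 2 cytosolic genes not called in M, and are described here because their values stood out. Yars read 9.21, 9.17 and 9.27 in WT, 9.28, 9.65 and 9.43 in E and 9.30, 9.78 and 9.50 in M. Its M arrays lay above all its WT arrays and overlapped with the E arrays, with a difference to WT of 0.31 ± 0.13 (adjusted p = 0.0565, limma), and without M replicate 1 it was called higher, at 0.43 (adjusted p = 0.0154). It was also called higher with array weights (adjusted p = 0.0493) and with the replicate number as a block (adjusted p = 0.0396). The direction depends on the scaling: with arrays centred on their median probe set it was -0.32, and centred on the spike-ins -0.70. Tars read 11.48, 11.33 and 11.49 in WT, 11.47, 11.51 and 11.46 in E and 11.32, 11.29 and 11.19 in M. Its M arrays were all below the WT arrays, with a difference of -0.16 ± 0.07 (adjusted p = 0.0598) that was called without WT replicate 2. Genes for other threonyl enzymes fell further, with -0.92 ± 0.08 for Tarsl2, a second cytosolic form, and -0.89 ± 0.11 for Tars2, the mitochondrial form, neither of which is in the list of 35.

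Yars and Tars share with Aars, Gars and Iars a short sequence at the gene start that the selection did not use. The core of the C/EBP-ATF response element, to which ATF4 is known to bind, was searched as TGATGNAA on both strands (TTNCATCA on the other) in RefSeq windows of 250 bases before and 50 after each start (GRCm38.p6). Of the 34 measured synthetases 25 had such a window, 12 of them cytosolic, and 5 held a match, all cytosolic, while 3.97% of the 32851 windows in the table did. The matches of 4 of these genes are shown with 11 bases on either side, 5′ to 3′ along the gene, with the match in capitals.

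Gars, chr6:55037960-55037989, plus strand: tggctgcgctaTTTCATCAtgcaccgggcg
Iars, chr13:49682126-49682155, plus strand: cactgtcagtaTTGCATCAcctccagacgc
Tars, chr15:11399655-11399684, minus strand: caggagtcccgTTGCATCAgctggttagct
Yars, chr4:129189895-129189924, plus strand: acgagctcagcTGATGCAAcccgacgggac

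Read on the gene's own strand, the matches of Gars, Iars and Tars are in the TTNCATCA form and that of Yars is in the TGATGNAA form. Counting from the start, the match begins 30 bases before it in Gars and 15 before it in Tars, and at base 4 of the transcript in Yars and base 8 in Iars. The 5 cytosolic genes with a match differed between M and WT by -0.37 (Aars) to 0.31 (Yars), with a median of -0.33. The 7 cytosolic genes whose window held none (Eprs, Farsa, Farsb, Kars, Mars, Qars and Sars) differed by -0.83 to -0.43, with a median of -0.65, so that the 2 ranges did not meet. They came closest at Aars (-0.37 ± 0.11, SE) and Eprs (-0.43 ± 0.07). The second probe set of Aars gave -0.63, within the range of the genes without a match. The other 7 cytosolic genes had no window and ranged from -0.63 (Vars) to -0.37 (Nars).

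This order is a description of 12 genes with no test, and the letters were searched with the values already known. Taken array by array, all 5 genes with a match lay above all 7 without in M replicate 2, 4 of 5 did in M replicate 1 and 3 of 5 in M replicate 3. Of the 22 alternative settings 11 leave the order of these genes as it is by construction. Of the other 11 the separation was kept in 7 and not under quantile normalization, with the mean of a gene's probe sets, or without WT replicate 3 or M replicate 2. Other motifs also split the 12 genes: the medians were -0.16 for the 3 with a GC box (GGCGGGGC) and -0.59 for the 9 without, and -0.36 for the 4 with an E-box (CACGTG) and -0.60 for the 8 without. In E against WT the same genes overlapped widely, from 0.04 to 0.24 with a match and from -0.03 to 0.22 without. Over all tested genes with a window, the 194 with a match had a median difference of -0.12 between M and WT and the 7300 without one of -0.20, with 34.0% and 24.2% called higher and 41.2% and 44.5% called lower.

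**Figure D2:**
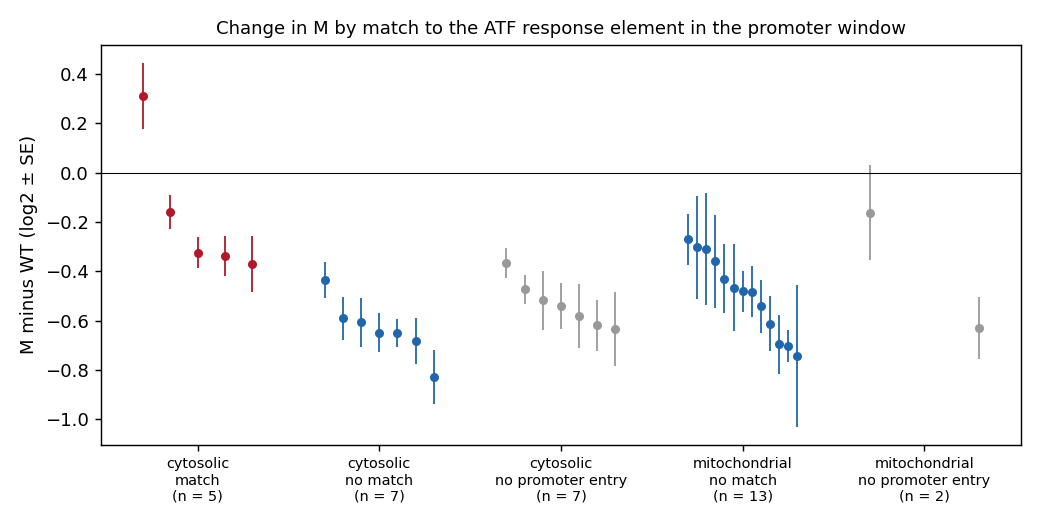
Difference between M and WT (y axis, log2, bars are SE of the model) for the 34 measured synthetases, grouped by set and by whether the promoter window held a match to the ATF response element core. Each point is 1 gene, and the 5 cytosolic genes with a match sit above the 7 without. The bars of Aars and Eprs overlap, and the separation was lost in 4 of the 11 alternative settings that could alter it.

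For longer context, the 250 bases before the start are shown for Tars, with a match, and for Farsa, without one and with the lowest value. Capitals mark the response element core and a GC box (GGCGGGGC) in Tars, and an ETS site (CCGGAAGT, here on the other strand) in Farsa.

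Tars, chr15:11399659-11399908, minus strand: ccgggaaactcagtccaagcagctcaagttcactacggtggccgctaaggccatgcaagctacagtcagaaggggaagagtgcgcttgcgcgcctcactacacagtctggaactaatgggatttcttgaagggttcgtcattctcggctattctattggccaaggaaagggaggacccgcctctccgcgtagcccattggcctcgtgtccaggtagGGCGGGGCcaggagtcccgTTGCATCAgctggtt
Farsa, chr8:84856736-84856985, plus strand: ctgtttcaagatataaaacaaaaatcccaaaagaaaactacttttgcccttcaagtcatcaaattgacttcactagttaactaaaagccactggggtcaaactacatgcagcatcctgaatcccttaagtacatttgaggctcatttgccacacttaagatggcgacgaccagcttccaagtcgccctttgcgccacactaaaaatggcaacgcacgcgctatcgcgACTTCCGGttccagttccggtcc

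The mitochondrial synthetases, which charge the tRNAs encoded in mitochondrial DNA, fell in M with a median of -0.48. Iars2, the isoleucyl enzyme, read 10.9996, 11.05 and 10.98 in WT, 11.09, 11.10 and 11.01 in E and 10.31, 10.31 and 10.28 in M. Rars2, the arginyl enzyme, read 10.94, 10.69 and 10.85 in WT, 10.93, 10.97 and 10.99 in E and 10.42, 10.07 and 9.90 in M. In both genes M lay below WT and E without overlap, and the M arrays of Iars2 were far closer to each other than those of Rars2. The difference between M and WT was -0.70 ± 0.06 for Iars2 (1.63-fold, adjusted p = 3.6e-06) and -0.70 ± 0.12 for Rars2 (1.62-fold, adjusted p = 0.000385), both in limma. With the mean of its probe sets Iars2 was not called (-0.29, adjusted p = 0.111).

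Sars2, the seryl enzyme, had the lowest value of the mitochondrial set and also the widest spread. It read 7.25, 7.09 and 7.88 in WT, 7.88, 7.12 and 7.65 in E and 6.70, 7.05 and 6.24 in M. All 3 M arrays lay below the lowest WT array, M replicate 2 only just, and E overlapped with WT. Its fall of 0.74 ± 0.29 (adjusted p = 0.0387) was no longer called without WT replicate 1 or 3, E replicate 3 or M replicate 1 or 3, where the adjusted p was between 0.0527 and 0.163.

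Yars2, the tyrosyl enzyme, read 10.80, 10.53 and 10.63 in WT, 10.92, 10.87 and 10.87 in E and 10.23, 10.10 and 9.80 in M. Lars2, the leucyl enzyme, read 11.29, 11.21 and 11.27 in WT, 11.39, 11.50 and 11.32 in E and 10.90, 10.79 and 10.64 in M. For both the order was E over WT over M with no overlap between groups. Yars2 differed between M and WT by -0.61 ± 0.11 (adjusted p = 0.000536) and Lars2 by -0.48 ± 0.08 (adjusted p = 0.000351). With the mean of its probe sets, 2 of them dim, Lars2 was not called in M against WT (-0.12, adjusted p = 0.773) or E (-0.044, adjusted p = 0.920). Wars2, the tryptophanyl enzyme, read 8.05, 7.97 and 8.12 in WT, 7.91, 8.04 and 8.004 in E and 7.42, 7.79 and 7.65 in M. E and WT overlapped and M lay below both, by -0.43 ± 0.14 against WT (adjusted p = 0.0178), a call lost without WT replicate 3 (adjusted p = 0.0600) or M replicate 1 (0.0663).

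Among the other mitochondrial genes called lower in M, the means in WT, E and M were 9.40, 9.46 and 8.77 for Hars2 (histidyl), 9.50, 9.55 and 8.96 for Cars2 (cysteinyl) and 10.04, 9.996 and 9.56 for Nars2 (asparaginyl). They were 7.86, 8.04 and 7.40 for Ears2 (glutamyl) and 9.30, 9.57 and 9.03 for Fars2 (phenylalanyl). The last 2 calls rested on single arrays. Ears2 was lost without WT replicate 1 or 3 or M replicate 1 or 3, and Fars2 without any array except WT replicate 2 or M replicate 3.

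The 4 mitochondrial genes not called between M and WT were Pars2 (prolyl, -0.16), Aars2 (alanyl, -0.30), Mars2 (methionyl, -0.31) and Vars2 (valyl, -0.36), all with arrays that overlapped between the groups, and Vars2 was called without WT replicate 3. All 4 were called lower under quantile normalization (Pars2 -0.64, Aars2 -0.92, Mars2 -0.94 and Vars2 -0.92) and under both centrings. Of all tested genes, quantile normalization called 50.8% lower, median centring 73% and spike-in centring 79.4%. Mars2 read 7.23, 7.25 and 6.72 in WT, 7.48, 7.85 and 7.26 in E and 6.54, 6.76 and 6.97 in M. Its E arrays were the highest, and its lowest WT array lay among the M arrays. The spread within groups was wider in the mitochondrial set, with a median SD of 0.14 in WT, 0.09 in E and 0.19 in M, against 0.08, 0.05 and 0.16 in the cytosolic set.

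**Figure D3:**
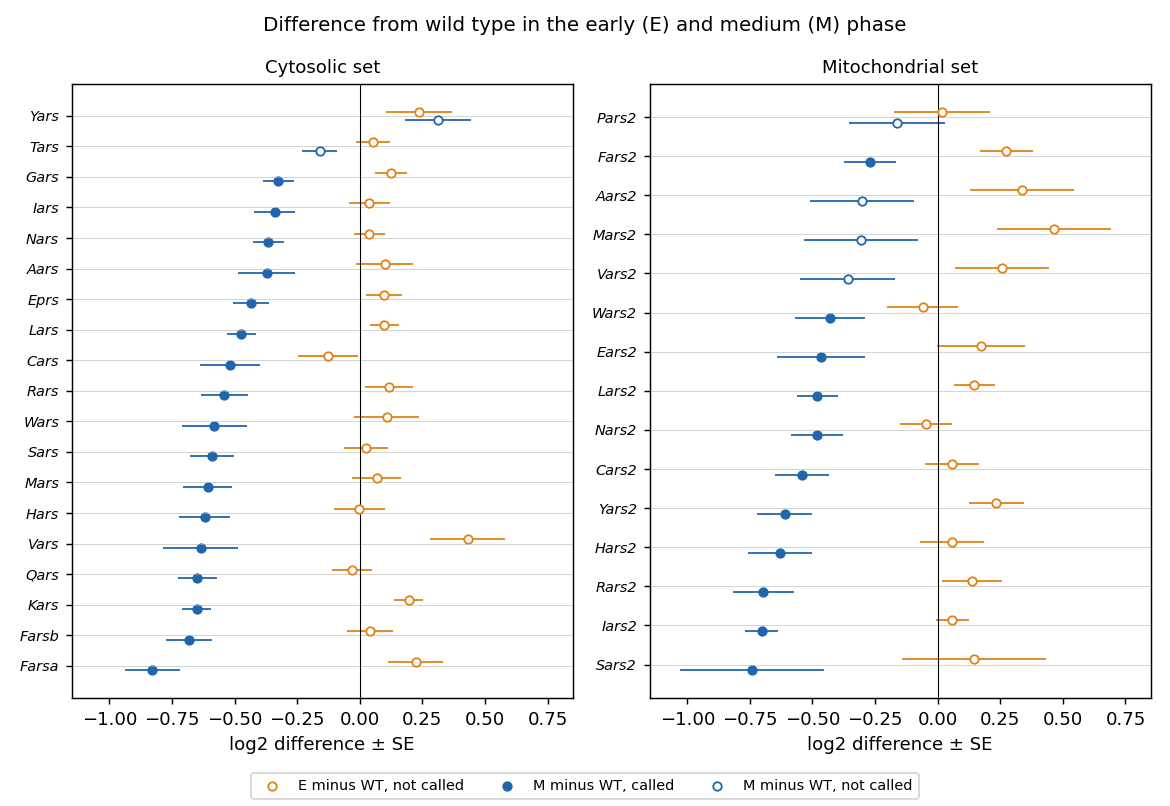
Differences from WT for each measured synthetase in E (orange) and M (blue) on the log2 scale, with the SE of the limma model as bars. Filled points passed an adjusted p under 0.05 and open points did not; none of the E points is filled, while 17 of 19 cytosolic and 11 of 15 mitochondrial M points are.

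Cytosolic and mitochondrial enzymes for the same amino acid could be set side by side in 15 pairs (Fars2 with each of Farsa and Farsb). Both members were called lower in M in 11 of them, where 43.5% of all tested genes, taken singly, were called lower. The change in the cytosolic gene was the higher of the 2 in 9 pairs and the lower in 6, with a median difference between the changes of 0.01. For histidine, leucine, cysteine and glutamate the changes in the pair were within 0.04 of each other (Hars -0.62 and Hars2 -0.63, Lars -0.47 and Lars2 -0.48, Cars -0.52 and Cars2 -0.54, Eprs -0.43 and Ears2 -0.47). The widest gap was for tyrosine, with 0.31 for Yars and -0.61 for Yars2. Next came phenylalanine, with -0.83 for Farsa and -0.27 for Fars2, and isoleucine, with -0.34 for Iars and -0.70 for Iars2. These gaps depend on the probe set: the second one of Fars2, nearly as bright, gave -0.59, and that of Iars2, much dimmer, gave 0.13. The gaps themselves were not tested.

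Both structural classes were lower in M, in a comparison that called 43.5% of all tested genes lower. In the cytosolic set the median difference between M and WT was -0.54 over 9 genes of class I and -0.59 over 9 genes of class II, with 8 of 9 called lower in each, leaving out Eprs, which joins an enzyme of each class. In the mitochondrial set it was -0.48 over 9 class I genes, 7 of them called, and -0.39 over 6 class II genes, 4 of them called.

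Between M and E, which asks what changed as leukemia advanced, 18 of 19 cytosolic and 14 of 15 mitochondrial genes were called lower and 0 higher, where 43.9% of all tested genes were called lower and 26.1% higher. The genes not called were Yars (0.08 ± 0.13) and Pars2 (-0.18 ± 0.19). Yars again turned with the scaling, to -0.69 with arrays centred on the median and -0.94 on the spike-ins. The medians were -0.62 and -0.64, against -0.19 over all tested genes. This comparison shares its M arrays with that of M and WT. The largest fall was in Vars, by 1.07 ± 0.15 (2.09-fold, adjusted p = 7.6e-05), and the next in Farsa, by 1.05 ± 0.11 (2.07-fold, adjusted p = 7.5e-06). Sars2 fell by 0.89 ± 0.29, Kars by 0.85 ± 0.06, Yars2 by 0.85 ± 0.11 and Rars2 by 0.83 ± 0.12. Mars2, not called against WT, fell by 0.77 ± 0.23 against E (adjusted p = 0.0103), and Iars2 by 0.76 ± 0.06. With the mean of its probe sets Farsa was not called against E (-0.27, adjusted p = 0.179), nor were Cars, Lars2, Nars2 and Vars2. Single arrays decided the calls of Sars2 (lost without E replicate 1 or 3), Tars and Aars2 (E replicate 2), Vars2 (E replicate 3) and Wars2 (any E array or M replicate 1).

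The means over each set follow the single genes. The cytosolic mean was 11.57, 11.49 and 11.54 in the WT arrays, 11.62, 11.64 and 11.63 in the E arrays and 11.10, 11.15 and 10.92 in the M arrays. The mitochondrial mean was 9.07, 8.98 and 9.03 in WT, 9.18, 9.21 and 9.15 in E and 8.57, 8.63 and 8.44 in M. In both sets the E arrays lay above the WT arrays and the M arrays below them, with no overlap, and 15 of 19 cytosolic and 13 of 15 mitochondrial genes had group means in that order. Of all tested genes 48.5% had E below WT and 61.5% had M below WT, and the share with this order was not counted. M replicate 3 was the lowest M array for 16 of 19 cytosolic and 10 of 15 mitochondrial genes. That array stood apart more widely. Over all tested genes its root mean square difference from either other M array was 0.44, while those differed by 0.21. Its cell cycle markers had a mean of 12.56 against 13.08 and 13.06 in the other M arrays. Erythroid markers stood at 10.22 against 11.33 and 11.65, and pan-leukocyte markers at 10.91 against 10.35 and 10.18. The part of this in the synthetase values was not tested. Without M replicate 3 the median difference between M and WT was -0.47 in the cytosolic set.

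**Figure D4:**
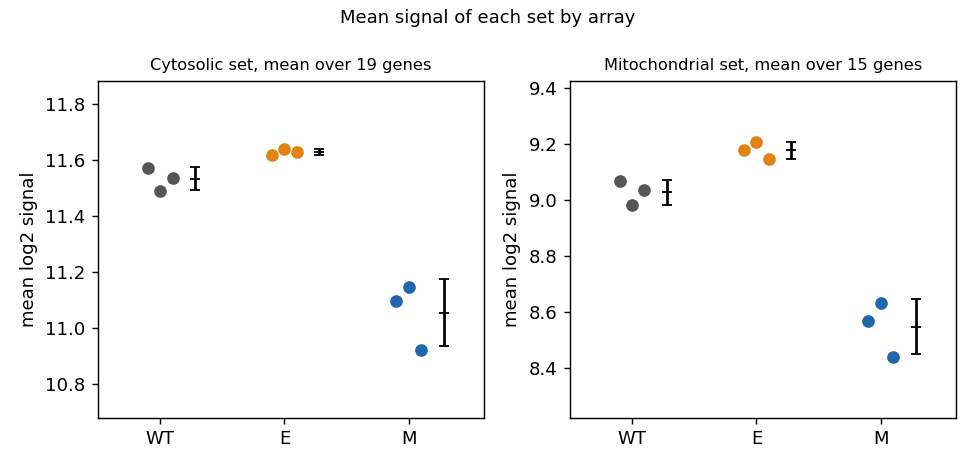
Mean log2 signal (y axis) over the 19 cytosolic and the 15 mitochondrial synthetases in each array, by group. Dots are arrays and the bar beside them is the mean ± SD of 3 arrays; E lies above WT and M below it in both panels.

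Genes that work around the synthetases were lower in M to differing extents, beside 43.5% of all tested genes called lower and an overall median of -0.19. None of the genes of any pathway list was called between E and WT. Of 11 tested synthetases and charging factors outside the list of 35, 9 were lower in M than in WT and 0 higher, with a median of -0.64, led by Aarsd1, an alanyl editing factor, at -0.95 ± 0.07. Of 8 mitochondrial translation factors 6 were lower and 0 higher, with a median of -0.64. Tufm, the mitochondrial elongation factor that carries charged tRNA to the ribosome, was at -0.74 ± 0.11 and Tsfm, its exchange factor, at -0.60 ± 0.08. Of 10 genes of tRNA maturation and export 8 were lower, with a median of -0.57, and Tsen34, a subunit of the tRNA splicing endonuclease, was the 1 that rose, by 1.37 ± 0.20. Cytosolic elongation factors, with 4 of 7 lower, 1 higher and a median of -0.15, were near these overall values, and Eef2, the translocation factor, was at -0.40 ± 0.07.

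Most genes in a list of ATF4 and some of its known targets were higher in M, while most synthetases were lower. The list does not hold every gene that ATF4 is known to raise, and the synthetases themselves are outside it. Of its 14 tested genes, 10 were called higher in M than in WT and 2 lower. Over all tested genes 25.3% were called higher and 43.5% lower. The 10 include Chac1 and Vldlr, which entered the test through their high M arrays alone, so their calls carry no weight here. The median of the 14, these included, was 1.63. Cebpb, a partner of ATF4 at the response element, rose by 2.62 ± 0.11, Atf3 by 3.48 ± 0.18 and Nupr1 by 3.76 ± 0.18. Vldlr read 6.49 ± 0.07 in WT, 6.19 ± 0.11 in E and 9.85 ± 0.34 in M, and it and Chac1 were bright enough for testing through their M arrays only. Cebpb is also a known regulator of granulocytes and fat cells, and the granulocyte and mesenchymal markers rose in M as given above; their part in these values was not tested. Asns, which makes asparagine and holds a match to the same element in its window, was chosen after its value was seen and fell by 0.60 ± 0.08, as most synthetases did. Atf4 itself, also chosen so, rose by 0.62 ± 0.06, from 12.42 ± 0.09 in WT to 13.04 ± 0.04 in M (SD, n = 3).

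Among the kinases and phosphatase subunits that set eIF2 phosphorylation upstream of ATF4, 2 of 6 were called higher in M and 3 lower. That is near the 25.3% called higher and 43.5% called lower over all tested genes. Eif2ak3 (PERK), the kinase of the endoplasmic reticulum, rose by 0.65 ± 0.12 and Ppp1r15a, a feedback phosphatase subunit, by 1.13 ± 0.17. Eif2ak2 (PKR), the kinase sensitive to double-stranded RNA, fell by 0.73 ± 0.13. Of 11 tested genes of amino acid synthesis 7 were lower and 2 higher, among them Got2, the mitochondrial aspartate aminotransferase (-0.59 ± 0.06), and Mthfd2, a mitochondrial folate enzyme (0.54 ± 0.09). Of 11 tested amino acid transporters 3 were higher, 2 lower and 6 not called, with the share higher near that over all tested genes. Slc38a2, a neutral amino acid carrier, rose by 1.19 ± 0.06 and Slc38a1, its close relative, fell by 0.94 ± 0.08.

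**Figure D5:**
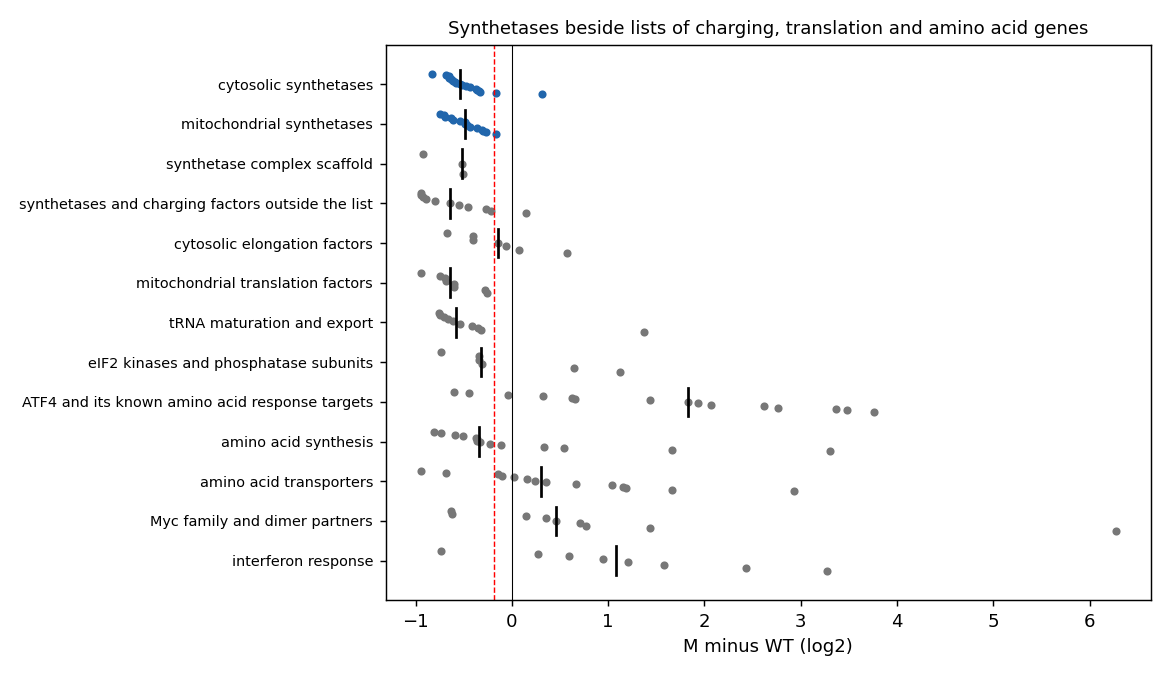
Difference between M and WT (x axis, log2) of every gene on the array in the synthetase sets (blue) and in lists of related genes (grey), genes under the brightness filter included. Black bars are list medians and the dashed red line is the median of all 9097 tested genes, -0.19. The synthetase sets lie mostly to the left of this line and most genes of the ATF4 list to the right of 0.

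Myc, a transcription factor known to raise genes of protein synthesis, and its relatives were given as a further list. Of 8 tested genes 5, Mycn among them, were called higher in M and 2 lower. Over all tested genes 25.3% were called higher and 43.5% lower, shares that also stand beside the marker counts below. Mycn read 4.53 ± 1.21 in WT, 6.60 ± 0.68 in E and 10.80 ± 0.34 in M. It was bright enough for testing through its M arrays only, so its call carries no weight here. Mxd1, a repressor of the network, rose by 1.43 ± 0.12, and Max, the shared partner, fell by 0.63 ± 0.09. Markers of other cells and of cycling also moved in M. The cell cycle list had 10 of 11 genes lower, with means of 13.46 ± 0.05 (WT), 13.37 ± 0.02 (E) and 12.90 ± 0.29 (M), and the pan-leukocyte list had 7 of 7 higher, at 9.25 ± 0.08, 8.81 ± 0.04 and 10.48 ± 0.38. As summed signal on the log2 scale, the mesenchymal markers ran from 13.91 to 14.15 in WT, 14.38 to 14.51 in E and 16.34 to 16.61 in M, the granulocyte markers from 12.94 to 13.09, 13.45 to 13.57 and 16.33 to 16.61, and the 7 erythroid markers on the array from 15.58 to 15.77, 15.35 to 15.44 and 14.67 to 15.81. None of these markers was at 0 in any array. Their part in the fall of the synthetases was not tested.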

How the data were processed

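Total RNA was labelled with a 3′ kit and hybridised to Affymetrix arrays, per the labels' protocols. The authors deposited log2 signals of 45101 probe sets, made with MAS5 per the submitters' processing notes (version not given in the sources used here). Trimmed of 2% of probe sets at each end, the linear mean was 500.0 in every array. Annotation gave 34958 probe sets a single symbol, 932 several and 9211 none. Each of 18194 genes was read from its probe set with the highest mean, and the 9097 at or above log2 6.83 were fitted by limma 3.58.1 under R 4.3.3 (all 9 arrays, intensity trend, Benjamini-Hochberg over 9097 genes, threshold 0.05). The script was tested on simulated data. The number of arrays limits the precision. The p-values weigh a group difference against the spread between arrays within groups, which need not be the spread between mice. Arrays were given per sample for genes with the largest called changes and for Eprs, Wars, Farsa, Farsb, Lars2 and Wars2; up to 4 genes of a pathway list by smallest p could be named. Members, lists, motifs and the genes singled out were chosen with earlier results of these data known. Alternatives were other filters, pseudocounts of 1 and 64, 3 other scalings, other limma settings, the mean of probe sets, 2 groups only, a replicate block and each array left out. The sequence around 1 of the 5 promoter matches is not reported here.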

Additional observations from a re-analysis of the deposited data

How the results depend on the processing

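Over the members, 2118 of the values under an alternative kept their side of the threshold, 48 lost and 26 gained a call and 4 turned with a call. Further turns of sign, in values called in neither setting, were 21 between E and WT, over 11 genes (Farsa from 0.22 to -0.25 with the mean of its probe sets), and 3 between M and E, all Yars. The 4 turns with a call were also Yars: its difference between M and WT became -0.32 with arrays centred on the median (adjusted p = 0.0466) and -0.70 centred on the spike-ins, and that between M and E became -0.69 and -0.94. Scaling moved the medians most: the median of all tested genes between M and WT was -0.28 after quantile normalization, -0.82 after median centring and -1.20 after spike-in centring, and the share of all tested genes called lower was 50.8%, 73.0% and 79.4%. With quantile normalization the cytosolic and mitochondrial medians were -0.48 and -0.75 between M and WT and -0.45 and -0.89 between M and E. With median centring they were -1.17 and -1.11, then -1.38 and -1.40, and the cytosolic median between E and WT was 0.23. With spike-in centring they were -1.55 and -1.49, then -1.63 and -1.66. The stricter filter tested 5 mitochondrial genes and called 5 in both comparisons with M. In the mean of a gene's probe sets dim probe sets count as much as bright ones. With it 9 of 13 tested mitochondrial genes were called between M and E, where 32.7% of all tested genes were called lower. The medians were -0.57 (cytosolic) and -0.44 (mitochondrial). Farsa was then not called against E (-0.27, adjusted p = 0.179, limma), nor were Iars2 against WT and Cars and Lars2 against either group. Nars2 (adjusted p = 0.111, limma) and Vars2 (adjusted p = 0.136, limma) were also not called against E. Between E and WT, 2 cytosolic genes (Kars and Vars) were called with array weights and 1 (Kars) with only those groups fitted, settings that called 9.32% and 8.31% of all genes.

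Leaving out 1 array at a time gave 0 to 1 cytosolic calls and a cytosolic median of 0.034 to 0.11 between E and WT. Between M and WT it gave 16 to 18 cytosolic calls with a median of -0.57 to -0.47. Mitochondrial calls there numbered 7 to 11, with a median of -0.52 to -0.43. Between M and E the cytosolic median was -0.62 to -0.54. In these settings 39.5% to 43.7% of all tested genes were called lower between M and WT, with a median of -0.21 to -0.16. Between E and WT 1.08% to 9.19% of all tested genes were called. Replicate numbers did not pair the samples: arrays with the same number had deviations correlated by -0.10 to 0.08, and 2 of 9 arrays correlated best with their own number. With the replicate block 18 cytosolic genes (17 lower, and Yars higher) and 9 mitochondrial genes were called between M and WT and 18 and 13 between M and E. That setting called 42.3% of all tested genes lower and 24.8% higher between M and WT, and 43% lower between M and E.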

Other observations

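Of the 34 synthetases 22 had more than 1 probe set with a single symbol, 70 in all. Of the 36 probe sets not used, 30 had the same sign as the chosen one between M and WT, and so had 21 of the 22 that were as bright as the tested genes. Farsb gave -0.68, -0.75, -0.79 and -0.77 over its 4 probe sets, while those of Farsa gave -0.83, -0.62, -0.73 and 0.11. The second probe set of Nars gave -0.06, that of Iars2 0.13 and a dim one of Lars2 0.53. The probe set used for Farsb, Qars and Wars is of a kind whose probes may also match other transcripts, and that of Aars, Iars and Sars may match several related transcripts.

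Other motifs searched in the 25 windows were the E-box CACGTG (7.15% of all windows), found in Aars, Ears2, Farsb, Iars and Tars, the GC box GGCGGGGC (14.2%), found in Iars2, Mars2, Nars2, Qars, Rars2, Tars, Wars2 and Yars, and the ETS site CCGGAAGT (3.89%), found in Farsa, Mars and Rars2. The forms TGACGTCA (1.79%) and TGACGTAA (0.499%) of the cAMP response element matched none of the 25. The 3 genes with the ETS site differed between M and WT by a median of -0.70, the other 22 by -0.45, and over all tested genes with a window 56.7% of the 789 with the site and 42.9% of the 6705 without were called lower. These are descriptions with no test.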
